A study of Mus musculus with 24 samples.

Results

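Transcripts enriched in and depleted from hepatic endothelial cells (ECs) were identified by comparing 3 libraries of ECs sorted from livers of control mice with 3 libraries of whole liver tissue from other control mice. These 6 libraries are taken from 24 mouse RNA-seq libraries in 8 groups of 3, which otherwise hold control liver macrophages and cells or tissue of mice with a conditional loss of GDF2 and BMP10 in hepatic stellate cells (HSCs) or of SMAD4. The members were chosen by label only. Both tables list 48820 entries by gene symbol, and the 48337 symbols found once in each table were joined. The control mice, C57BL/6 in the labels and C57BL/6J in the methods, were the controls of Bmp9/10-HSC-KO mice, in which Lrat-Cre deletes floxed *Gdf2* and *Bmp10* in HSCs, and their own genotype is labelled control, with WT in the sample descriptions and no alleles named. For the EC libraries, livers of mice aged 8 to 10 weeks were perfused with collagenase IV and DNase I, hepatocytes were spun out, the other cells were enriched on a density gradient and CD45-CD31+ cells were sorted. For the liver libraries, tissue of mice aged 12 weeks was lysed whole, with no digestion or sort, and its RNA was taken with TRIzol instead of a column kit. Digestion, sorting, RNA extraction and age therefore change together with the group, and their part in any difference cannot be told apart from that of the cell type. The CD31 gate takes ECs of the sinusoids and of the larger vessels alike. Levels in 3 libraries of sorted CD45+Ly6C-F4/80+CD64+ macrophages of control mice aged 8 to 10 weeks are set beside some genes, with no test.

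Liver sinusoidal ECs form a fenestrated lining without a continuous basement membrane between the blood and the hepatocytes. They clear waste molecules from the blood with scavenger receptors, and they send BMP, Wnt and R-spondin signals to the hepatocytes, which respond with hepcidin and with the enzymes of the pericentral zone. Hepatocytes make up most of the tissue and synthesize the plasma proteins. In a comparison of sorted cells with bulk tissue, a transcript that is low in tissue may come from few cells or from little RNA per cell, and these cannot be told apart.

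The EC libraries held 71376375 to 84602768 counts and the liver libraries 73941995 to 104087482 counts. A count was found for 18022 to 18436 genes in the ECs and for 20183 to 20732 in the livers. The Pearson correlation of the libraries was 0.986 to 0.988 among the ECs, 0.984 to 0.989 among the livers and 0.597 to 0.622 between ECs and livers, as a description across genes of log2 levels. Sex was unequal between the groups. All 3 liver libraries had *Xist* counts (33450, 54369 and 52168) and no counts of the Y-linked genes *Ddx3y*, *Eif2s3y*, *Kdm5d* and *Uty*. Control EC library 1 also had *Xist* counts (1765) and no Y-linked counts, whereas EC libraries 2 and 3 had 5661 and 6673 Y-linked counts and no *Xist* counts. A fit with Y-linked counts as a covariate therefore compares EC library 1 alone with the 3 liver libraries. Values of that fit are given as effect sizes only, and they cannot tell sex apart from that 1 mouse. The spread between libraries is that between single mice, 3 per group.

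Of 17279 genes tested, 4589 (26.6%) were higher and 5755 (33.3%) lower in the ECs, with an adjusted p below 0.05 in edgeR's quasi-likelihood test and an absolute log2 fold change above 1. An 8-fold difference or more was found for 1597 higher genes (9.24%) and 3381 lower genes (19.6%). These shares are the background against which the gene groups were read. The 27 gene lists hold 497 entries, some genes in more than 1 list, of which 493 were joined and 480 passed the filter on low counts. Levels are given as CPM, read counts brought to a common library size with TMM factors, and a fold change is always that of the ECs over the livers. The libraries of the 2 groups did not overlap for 13643 of the genes tested (79.0%), so that a lack of overlap is the usual finding here. The median log2 fold change over all genes tested was -0.16. It was 0.15 when the counts were scaled by library size alone, and differences close to the threshold move with that choice.

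**Figure D1:**
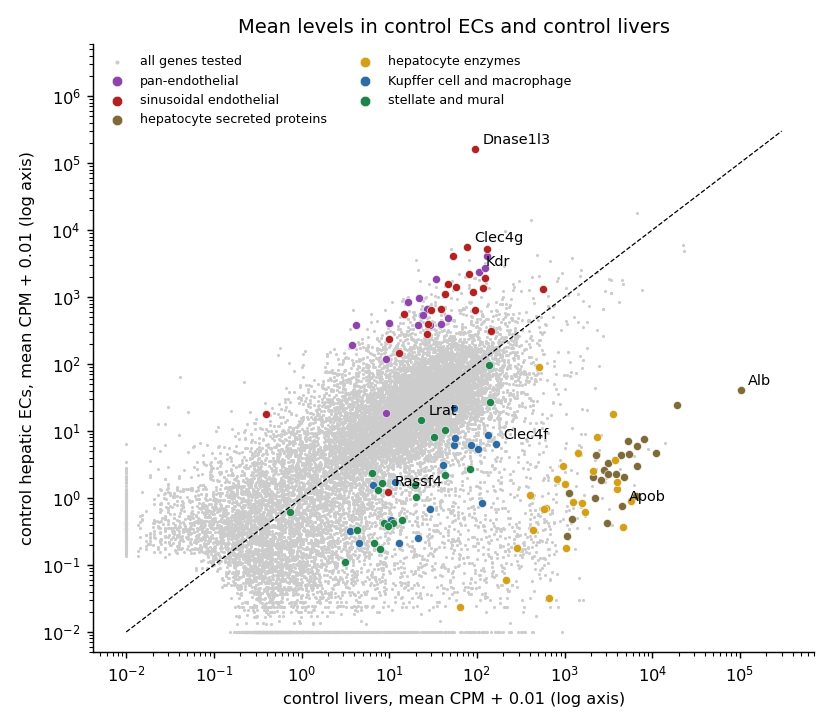
Mean CPM of each tested gene in the control livers (x axis, log scale) and in the control ECs (y axis, log scale), 3 libraries per group, with 0.01 added. The dashed line marks equal levels; the pan-endothelial and sinusoidal lists lie above it, apart from *Rassf4*, the lists of hepatocyte secreted proteins and enzymes lie below it, and *Dnase1l3* stands above all other genes.

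The sorted cells were checked against markers of endothelium and of the other cells that a liver digest can hold. The 18 pan-endothelial markers summed to 17707, 16935 and 17676 CPM in the 3 EC libraries and to 608, 699 and 733 CPM in the livers. The 24 secreted hepatocyte proteins summed to 156, 94.3 and 135 CPM in the ECs, against 206176, 199174 and 235109 CPM in the livers. For both sums, the difference between the groups was far larger than the spread within them. *Alb*, the gene of serum albumin, was at 0.04003% of its liver level. The 17 Kupffer cell and macrophage markers summed to 79.97, 64.6 and 69.6 CPM in the ECs, 679, 1126 and 931 CPM in the livers and 58119, 60887 and 56493 CPM in the sorted control macrophages. All 17 were lower in the ECs than in the livers. The most abundant of them in the ECs, the complement gene *C1qb*, was at 24.7, 19.7 and 20.7 CPM, which was 0.332% of its macrophage level. One mouse gave both EC library 3 and a macrophage library.

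Of 16 lymphoid and granulocyte markers tested, 16 were lower in the ECs, and the T-cell genes *Cd3e* and *Cd8a* and the granulocyte genes *S100a8* and *S100a9* had no count in any EC library. *Ptprc*, which encodes the CD45 used to gate these cells out, was at 0.389, 0.461 and 0.707 CPM. The globin and heme synthesis genes *Hba-a1*, *Hba-a2*, *Hbb-bs*, *Hbb-bt* and *Alas2* were lower in the ECs. In contrast, the platelet chemokine gene *Pf4* was higher, at 3.75, 3.88 and 2.92 CPM in the ECs and 0.778, 0.6204 and 0.8203 CPM in the livers (log2 fold change 2.24, SE 0.32), and it was highest in the macrophages, at 50.6, 65.1 and 45.1 CPM. The platelet receptor gene *Gp1ba* was at 1.73, 2.07 and 1.32 CPM and 0.294, 0.772 and 0.625 CPM (log2 fold change 1.6, SE 0.48). It missed the threshold without EC library 2 (adjusted p = 0.0514). Its log2 fold change was 1.63 with Y-linked counts as a covariate, where EC library 1 stands alone.

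Stellate and mural markers were lower in the ECs but stayed detectable. Of 21 tested, 18 were lower in the ECs, 12 of them at least 8-fold, with a median log2 fold change of -3.76, or -2.44 over members that had 10 or more counts in each library. They summed to 216, 170.5 and 135 CPM in the ECs and 609, 554 and 734 CPM in the livers. The proteoglycan gene *Dcn* was at 44.4, 29.6 and 6.47 CPM in the ECs and 117, 139 and 166 CPM in the livers. The matrix glycoprotein gene *Reln*, a stellate marker, was at 4.73, 2.97 and 0.398 CPM in the ECs and 86.04, 59.95 and 106 CPM in the livers. EC library 1 was the highest of the 3 for both genes and library 3 the lowest. With Y-linked counts as a covariate, which leaves EC library 1 alone against the livers, the log2 fold change of *Dcn* was -1.66, against -2.39 otherwise. *Lrat*, which forms the retinyl esters stored in HSCs and whose promoter drives the Cre of this study, was at 19.97, 13.5 and 9.65 CPM in the ECs and 10.4, 25.9 and 33.1 CPM in the livers (log2 fold change -0.68, SE 0.43, adjusted p = 0.185), and the groups overlapped. Without liver library 1 it passed the threshold as lower in the ECs (-1.04, adjusted p = 0.0238). The part of stellate RNA in the EC libraries was not tested.

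**Figure D2:**
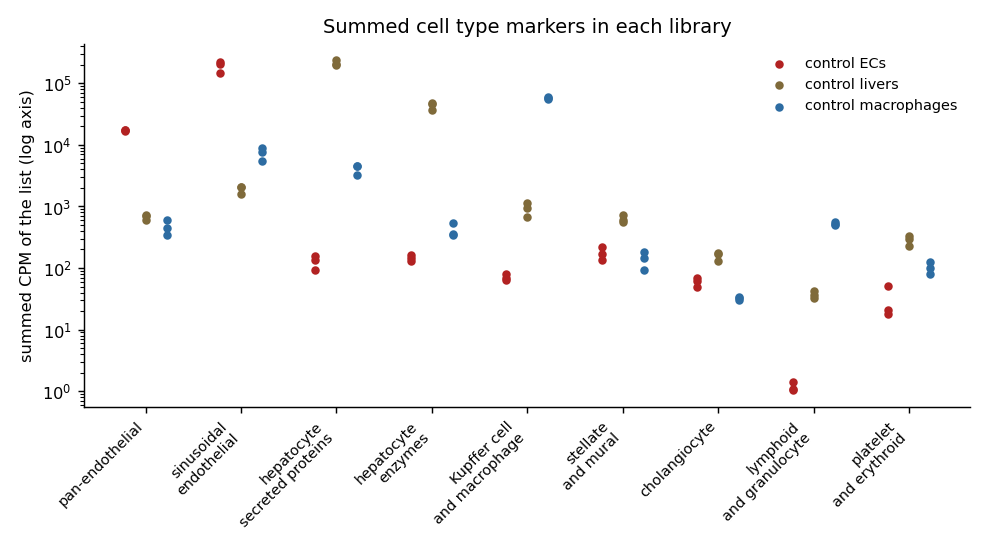
Summed CPM of the markers of each cell type (log axis) in the 3 libraries of control ECs, control livers and control macrophages; each point is 1 library. The EC libraries are highest for both endothelial lists, and the stellate and cholangiocyte lists show the smallest gaps between ECs and livers.

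All 18 pan-endothelial genes were higher in the ECs, 17 of them at least 8-fold, with a median log2 fold change of 4.51. *Pecam1* encodes the CD31 used for sorting, and its rise (log2 fold change 3.39, SE 0.16) is no finding. *Cdh5*, the VE-cadherin of endothelial adherens junctions, was at 517, 515 and 409 CPM in the ECs and 39.98, 49.5 and 52.8 CPM in the livers (log2 fold change 3.34, SE 0.19, adjusted p = 2.45e-06). Its level in the sorted macrophages, 255, 239.7 and 179 CPM, was above that in the livers. *Icam2*, an adhesion molecule of resting endothelium, had the largest fold of the list, with 353, 341 and 463 CPM in the ECs and 4.33, 3.83 and 4.38 CPM in the livers (log2 fold change 6.53, SE 0.21, adjusted p = 3.72e-07). *Egfl7*, a secreted endothelial matrix protein, *Esam*, a junctional adhesion molecule, and *Emcn*, the sialomucin endomucin, had log2 fold changes of 5.76, 5.71 and 5.7. The claudin gene *Cldn5* was at 576, 273 and 396 CPM in the ECs and 11.8, 9.14 and 8.57 CPM in the livers. *Sox18*, a transcription factor of the SoxF family, was the weakest member, at 19.4, 26.8 and 8.97 CPM in the ECs and 8.92, 9.82 and 8.84 CPM in the livers (log2 fold change 1.0, SE 0.36, adjusted p = 0.0348). EC library 3 lay within the range of the livers for this gene. It passed neither threshold reliably, with a log2 fold change of 0.62 without EC library 2 and an adjusted p of 0.0802, 0.0921, 0.0776 and 0.102 without EC library 1 or without each liver library.

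Of 23 sinusoidal genes tested, 22 were higher in the ECs, 19 of them at least 8-fold, with a median log2 fold change of 4.44. The hyaluronan receptor gene *Lyve1* was at 507, 593 and 562 CPM in the ECs and 14.7, 16.8 and 12.7 CPM in the livers (log2 fold change 5.23, SE 0.19, adjusted p = 5.09e-07). *Oit3*, a secreted protein of sinusoidal ECs, was at 1619, 1500 and 1578 CPM against 40.9, 47.01 and 51.7 CPM (log2 fold change 5.07, SE 0.20), and the orphan receptor gene *Gpr182* at 1240, 1106 and 991 CPM against 36.3, 43.3 and 51.6 CPM (log2 fold change 4.67, SE 0.22). For these 3 genes the ECs varied little and every EC library lay far above every liver. *F8*, which encodes coagulation factor VIII, was at 528, 691 and 711 CPM in the ECs and 19.9, 34.7 and 34.4 CPM in the livers. *Ehd3*, a membrane trafficking ATPase, was at 4589, 5188 and 5875 CPM in the ECs and 93.5, 133 and 167 CPM in the livers. The lectin gene *Clec1b* rose by 4.57 on the log2 scale, but its level in the macrophages, 595, 615 and 555 CPM, was higher than the 227, 230.4 and 249 CPM in the ECs. The protease genes *Ctsl* and *Dpp4* rose least, by 1.23 and 1.13, and *Dpp4* missed the threshold in a fit over all 12 EC and liver libraries (adjusted p = 0.185). *Rassf4* was the one member lower in the ECs, at 0.608, 1.45 and 1.64 CPM against 6.48, 11.5 and 10.7 CPM in the livers and 222, 203 and 196 CPM in the macrophages.

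*Dnase1l3*, which encodes a secreted nuclease that degrades chromatin in plasma, dominated the EC libraries. The gene lies on the minus strand at chr14:7964533-7994573 of GRCm38 and overlaps no other annotated gene. It took 14.1, 20.6 and 18.6% of all counts in the 3 EC libraries and a mean of 0.00853% in the livers. Its level was 117034, 192298 and 172715 CPM in the ECs and 87.5, 95.8 and 103 CPM in the livers (log2 fold change 10.72, SE 0.58, adjusted p = 2.14e-06), a 1686-fold difference. EC library 1 was the lowest of the ECs and still lay more than 1000 times above every liver. Per kilobase of exon, it was the highest of all protein-coding genes tested in the ECs, at 31194 CPM per kb, followed by *Actb* at 5348 CPM per kb. In the macrophages it was at 2685, 5552 and 5136 CPM.

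The level in whole liver as a share of the level in ECs separated *Dnase1l3* from the rest of the list. The liver level of the pan-endothelial genes was a median of 4.38% of the EC level, with a range of 1.08 to 49.97%. For all 23 sinusoidal genes, *Rassf4* included, the median was 4.61%. *Dnase1l3* was at 0.0593%, and the next lowest of the list was *Flt4* at 1.29%. These shares are a description of the means of 3 and 3 libraries, and what sets them was not tested.

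**Figure D3:**
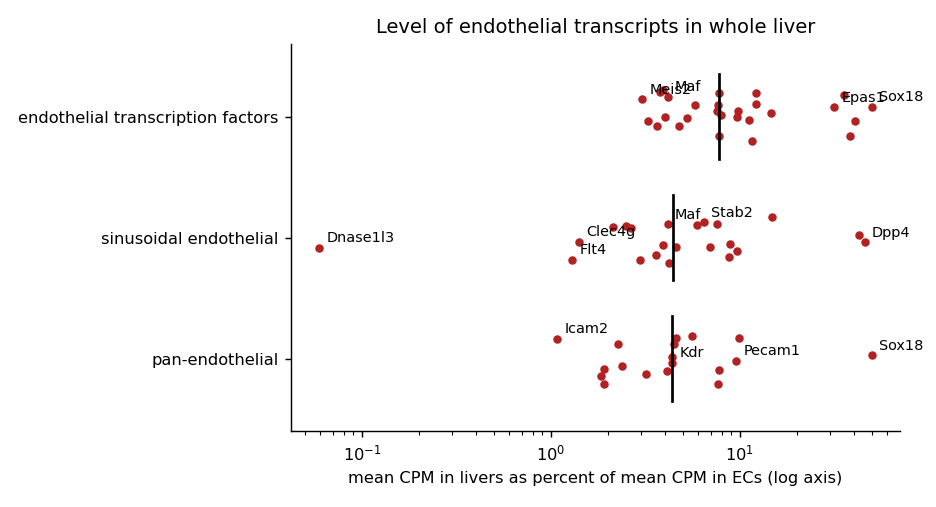
Mean CPM in livers as a percentage of mean CPM in ECs (log axis) for those members of 3 endothelial lists that were called higher in the ECs; each point is 1 gene and the bars are medians. Most genes lie between 1 and 15%, and *Dnase1l3* lies at 0.0593%.

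The bases before the gene start are shown for 2 endothelial genes that were at least 8-fold higher in the ECs. They are 250 bases from the RefSeq promoter table for GRCm38.p6, printed 5′ to 3′ on the strand of the gene. Capitals mark 2 motifs, searched on both strands. The first is AGGAAG, the core of an ETS factor site with its flanks. The other is AGATAA, a site of GATA factors.
Clec4g, chr8:3720652-3720901, minus strand: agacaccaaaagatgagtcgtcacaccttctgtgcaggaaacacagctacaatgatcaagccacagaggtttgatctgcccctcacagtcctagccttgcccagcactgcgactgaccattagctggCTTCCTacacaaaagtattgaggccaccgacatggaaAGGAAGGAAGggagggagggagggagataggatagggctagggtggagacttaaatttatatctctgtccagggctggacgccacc
Kdr, chr5:75978456-75978705, minus strand: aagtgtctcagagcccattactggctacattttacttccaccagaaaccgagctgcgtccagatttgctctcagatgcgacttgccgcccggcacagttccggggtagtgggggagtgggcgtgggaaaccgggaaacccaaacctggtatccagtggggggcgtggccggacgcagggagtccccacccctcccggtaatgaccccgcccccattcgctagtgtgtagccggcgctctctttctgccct
The *Clec4g* window holds AGGAAG 3 times, with 2 overlapping copies on the gene's strand and 1 copy on the other strand, and the *Kdr* window holds neither motif. AGGAAG was found before 7 of the 11 pan-endothelial and 9 of the 17 sinusoidal genes in the table, and before 29.2% of all 27025 promoters. It was found before 3 of 18 genes of secreted hepatocyte proteins. AGATAA was found before none of the 11 pan-endothelial genes, 1 of the 17 sinusoidal genes, 6.43% of the genes tested and 10.3% of all promoters. Of all genes at least 8-fold higher in the ECs, 32.7% of those in the table held AGGAAG, as did 32.2% of those at least 8-fold lower. A match is a description of the letters only.

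The list of scavenger and endocytic receptors holds receptors of ECs, hepatocytes and Kupffer cells. Of 20 tested, 11 (55%) were higher and 8 (40%) lower in the ECs, against 26.6% and 33.3% of all genes tested. At least 8-fold were 8 higher and 7 lower genes, against 9.24% and 19.6% of all genes tested. The lectin gene *Clec4g* was at 6184, 4872 and 5496 CPM in the ECs and 69.6, 84.9 and 79.5 CPM in the livers (log2 fold change 6.15, SE 0.26, adjusted p = 7.22e-07). *Stab2*, the stabilin that takes up hyaluronan and other waste ligands, was at 1960, 1757 and 2004 CPM in the ECs and 99.9, 133 and 136 CPM in the livers (log2 fold change 3.95, SE 0.21). Its relative *Stab1* was at 1389, 1268 and 1368 CPM in the ECs and 92.1, 119.7 and 142 CPM in the livers (log2 fold change 3.51, SE 0.22). Both stabilins were far above every liver in all EC libraries. *Fcgr2b*, the inhibitory Fc receptor that clears immune complexes, was at 2397, 2168 and 2140 CPM in the ECs and 68.2, 91.1 and 82.8 CPM in the livers (log2 fold change 4.79, SE 0.21). *Mrc1*, the mannose receptor, was at 1084, 1249 and 1223 CPM in the ECs, 55.03, 114 and 98.6 CPM in the livers and 638, 695 and 447 CPM in the macrophages (log2 fold change 3.73, SE 0.30). The scavenger receptor genes *Msr1*, *Cd36* and *Scarf1* and the neonatal Fc receptor gene *Fcgrt* had log2 fold changes of 3.34, 2.76, 2.28 and 1.87. The hepatocyte asialoglycoprotein receptor genes *Asgr1* and *Asgr2* stayed at or below 0.475 and 0.0659 CPM in every EC library, against 432 to 515 and 173 to 190.4 CPM in the livers. *Lrp1*, a large endocytic receptor, was at 3.87, 2.56 and 0.729 CPM in the ECs, 1377, 1300 and 1506 CPM in the livers and 792, 732 and 624 CPM in the macrophages (log2 fold change -9.19, SE 0.68, adjusted p = 1.02e-05; -8.49 with Y-linked counts as a covariate). *Clec4f*, *Marco* and *Cd163*, receptors of Kupffer cells, were also lower.

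Transcription factors of endothelium were higher in 27 of 29 cases, 21 of them at least 8-fold, with a median log2 fold change of 3.66. *Gata4*, which is known to direct the sinusoidal program in liver ECs, was at 273, 282 and 277 CPM in the ECs and 29.4, 26.6 and 24.4 CPM in the livers (log2 fold change 3.37, SE 0.14, adjusted p = 7.16e-07). The basic leucine zipper factor gene *Maf* was at 1282, 1474 and 1420 CPM in the ECs, 48.7, 60.01 and 64.7 CPM in the livers and 608, 704 and 603 CPM in the macrophages (log2 fold change 4.59, SE 0.20). *Nr2f2*, a venous fate factor, was at 692, 789 and 708 CPM in the ECs and 29.7, 31.4 and 24.9 CPM in the livers (log2 fold change 4.67, SE 0.18). Each of these 3 genes was far above the livers in all EC libraries. The ETS factor genes *Fli1*, *Ets1*, *Erg* and *Elk3* had log2 fold changes of 4.94, 3.66, 3.68 and 3.73. The homeobox gene *Meis2* had the largest fold of the list, 5.04, and *Mef2c*, *Tal1* and *Gata2* had 4.78, 4.39 and 4.26. *Klf2*, which shear stress induces, was at 169.9, 196 and 355 CPM in the ECs and 19.1, 16.98 and 19.9 CPM in the livers, and its relative *Klf4* at 65.6, 79.2 and 191 CPM and 4.79, 2.57 and 5.29 CPM. EC library 3 was the highest for both. *Hhex*, a homeobox gene of ECs and hepatocytes, did not reach the 2-fold threshold (log2 fold change -0.8, SE 0.27, adjusted p = 0.0281). *Tbx3*, a target of Wnt signalling in pericentral hepatocytes, was the one member called lower, at 0.0399, 0.0659 and 0.122 CPM in the ECs and 28.3, 39.98 and 27.3 CPM in the livers.

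Genes of continuous capillaries and of large vessels were mixed. Of 23 tested, 17 were higher, 8 of them at least 8-fold, and 4 were lower, with a median log2 fold change of 2.01. *Vwf*, the von Willebrand factor gene, was at 71.8, 69.2 and 65.2 CPM in the ECs and 17.2, 15.1 and 18.7 CPM in the livers (log2 fold change 2.01, SE 0.13, adjusted p = 6.03e-06). *Cd34*, a sialomucin of continuous endothelium, was at 22.4, 29.9 and 17 CPM in the ECs and 3.72, 0.711 and 3.09 CPM in the livers. *Plvap*, which forms the diaphragms of fenestrae and caveolae, was at 197, 93.1 and 160.3 CPM in the ECs and 67.01, 72.6 and 75.9 CPM in the livers (log2 fold change 1.06, SE 0.26, adjusted p = 0.00632). It was close to the threshold, with 0.99 under DESeq2's size factors and 0.81 without EC library 1. In contrast, the thrombomodulin gene *Thbd* was at 733, 655 and 1164 CPM in the ECs, the connexin gene *Gja4* at 371, 289.6 and 652 CPM and the stem cell antigen gene *Ly6a* at 882, 576 and 766 CPM. In the livers they ranged from 6.98 to 16.7, 4.05 to 12.8 and 22.4 to 24.7 CPM, all below every EC library. The chemokine receptor gene *Ackr1*, a venular marker, was at 118, 106 and 67.9 CPM in the ECs and 1.398, 0.696 and 0.964 CPM in the livers (log2 fold change 6.56, SE 0.35). *Cxcl12* was at 16.7, 11.5 and 4.24 CPM in the ECs and 439, 508 and 399 CPM in the livers (log2 fold change -5.37, SE 0.50, adjusted p = 3.81e-05; -4.75 with Y-linked counts as a covariate), and the chaperone gene *Clu* at 53.03, 84.7 and 79.9 CPM and 1571, 1248 and 1277 CPM. Both genes are known to be expressed by other liver cells too. The matrix genes *Sparcl1* and *Fbln5* were the other 2 that were lower, at no more than 2.51 and 3.16 CPM in any EC library. *Fbln5* fell below the 2-fold threshold without EC library 3 (-0.92) and with library sizes alone (-0.87). It was at -0.8 with Y-linked counts as a covariate.

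**Figure D4:**
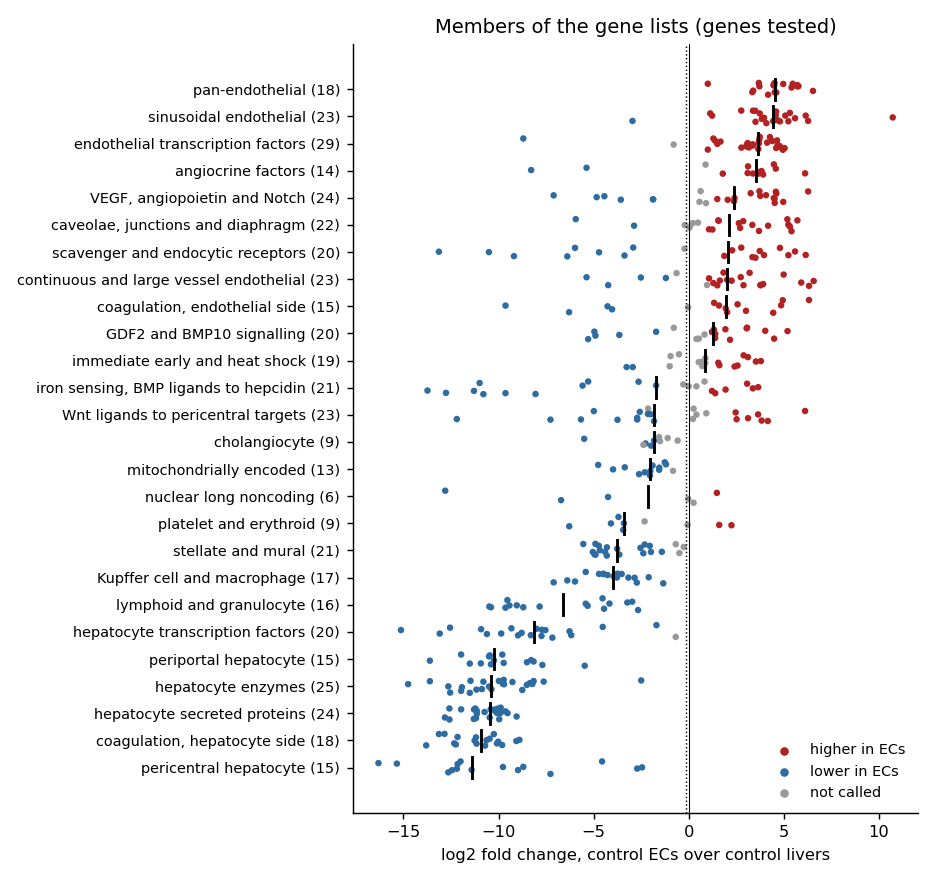
Log2 fold change, control ECs over control livers (x axis), of each tested member of 26 gene lists (number tested in parentheses), coloured by whether it was called higher, lower or neither; black bars are list medians, the dotted line is the median of all genes tested. Medians of fitted values run from 4.51 for pan-endothelial genes to -11.42 for pericentral hepatocyte genes.

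The angiocrine genes, whose products endothelium sends to neighbouring cells, were higher in 11 of 14 cases and lower in 2. These shares, 78.6% and 14.3%, stood against 26.6% and 33.3% of all genes tested. *Wnt2* was at 414, 309 and 553 CPM in the ECs and 5.66, 7.04 and 5.74 CPM in the livers (log2 fold change 6.11, SE 0.28, adjusted p = 1.02e-06), a 69.2-fold difference. *Rspo3*, which strengthens Wnt signals at the central vein, was at 93.8, 48.6 and 91.5 CPM in the ECs and 6.21, 4.797 and 5.43 CPM in the livers (log2 fold change 3.83, SE 0.28), and *Wnt9b* at 25.8, 11.5 and 25.4 CPM and 1.69, 2.13 and 3.41 CPM (log2 fold change 3.12, SE 0.40). EC library 2 was the lowest of the ECs for all 3 genes. *Dll4*, *Kitl*, *Angpt2* and *Dkk3* rose by 4.47, 3.69, 4.57 and 3.09. The hepatocyte growth factor gene *Hgf* was at 12.4, 15.1 and 22.2 CPM in the ECs and 5.03, 9.79 and 12.2 CPM in the livers and was not called (log2 fold change 0.88, SE 0.35, adjusted p = 0.05303). It passed the threshold without EC library 1 (1.05), without liver library 3 (1.14) and with library sizes alone (1.2), and was at 0.47 with Y-linked counts as a covariate. *Igf1*, a product of hepatocytes and macrophages, was at 1.84, 2.43 and 1.23 CPM in the ECs, 389, 585 and 738 CPM in the livers and 649, 847 and 1036 CPM in the macrophages.

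Of 23 genes of the Wnt pathway tested, 7 (30.4%) were higher and 11 (47.8%) lower in the ECs, against 26.6% and 33.3% of all genes tested. *Wls*, which carries Wnt proteins out of the cell, was at 107, 99.4 and 104 CPM in the ECs and 8.02, 7.41 and 9.41 CPM in the livers (log2 fold change 3.64, SE 0.15). Among the receptors, *Fzd4* was higher in the ECs (log2 fold change 2.46, SE 0.23), whereas *Fzd7* (log2 fold change -5.67, SE 0.34), *Fzd5* (log2 fold change -2.15, SE 0.38) and the co-receptor gene *Lrp5* (log2 fold change -2.71, SE 0.31) were lower. The R-spondin receptor gene *Lgr5* had no count in any EC library and was at 12.4, 3.74 and 4.65 CPM in the livers, at least 203-fold lower in the ECs against a floor of 3 counts per library. The bound was 123-fold without liver library 1. Its relative *Lgr4* was at 16.5, 21.2 and 16.2 CPM in the ECs and 59, 63.2 and 68.3 CPM in the livers (log2 fold change -1.83, SE 0.15). The target gene *Axin2* was at 1.87, 2.39 and 0.729 CPM in the ECs and 14.3, 10.8 and 7.53 CPM in the livers, and *Rnf43*, which removes Wnt receptors from the surface, at 0.0996, 0.303 and 0.0995 CPM and 31.5, 25.3 and 18.8 CPM. The factor genes *Tcf7l1* and *Tcf7l2* were higher in the ECs (log2 fold change 4.15, SE 0.20 and log2 fold change 2.51, SE 0.28), and *Tcf7l2* was higher still in the macrophages, at 558, 595 and 528 CPM. Its log2 fold change was 1.89 with Y-linked counts as a covariate. The ligand gene *Wnt5a* had counts in EC library 1 only, at 0.139 CPM, and was at 2.103, 0.953 and 1.76 CPM in the livers.

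The pathway of GDF2 (BMP9) and BMP10 signals from HSCs through the type I receptor ALK1, the co-receptor endoglin and the type II receptor BMPR2 to SMAD1, SMAD5 and SMAD9 and the ID genes. Of 20 genes tested, 11 (55%) were higher and 5 (25%) lower in the ECs, against 26.6% and 33.3% of all genes tested. At least 8-fold were 5 higher and 4 lower genes, against 9.24% and 19.6% of all genes tested. The ligand *Gdf2* was at 2.401, 1.42 and 0.84 CPM in the ECs and 21.4, 10.9 and 26.4 CPM in the livers (log2 fold change -3.65, SE 0.48, adjusted p = 2.57e-04), and *Bmp10* at 0.149, 0.0527 and 0.0995 CPM and 3.81, 3.16 and 2.34 CPM (log2 fold change -4.91, SE 0.51, adjusted p = 6.55e-05). EC library 1 was the highest EC library for both ligands. With Y-linked counts as a covariate, the log2 fold change of *Gdf2* was -3.03. *Eng*, the endoglin gene, was at 3149, 2317 and 2782 CPM in the ECs and 117, 119.8 and 132 CPM in the livers (log2 fold change 4.48, SE 0.22, adjusted p = 1.33e-06). *Acvrl1*, which encodes ALK1, was at 50.7, 45.8 and 51.6 CPM in the ECs and 5.29, 5.84 and 6.85 CPM in the livers (log2 fold change 3.04, SE 0.16, adjusted p = 1.63e-06). Its level in the macrophages was 161, 146 and 177 CPM, above all EC libraries. *Bmpr2* was at 221, 291 and 236 CPM in the ECs and 25.3, 30.1 and 33.9 CPM in the livers (log2 fold change 3.07, SE 0.18). Per kilobase of exon, the mean EC level was 679 CPM for *Eng*, 13.9 CPM for *Bmpr2* and 11.6 CPM for *Acvrl1*.

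Among the other receptor genes, *Bmpr1a*, which encodes ALK3, was at 0.767, 1.13 and 0.608 CPM in the ECs, 29.9, 31.3 and 36.5 CPM in the livers and 15.8, 14.1 and 8.71 CPM in the macrophages (log2 fold change -5.29, SE 0.27, adjusted p = 1.68e-06), a level 39.1-fold lower in the ECs. *Acvr1*, which encodes ALK2, was at 32.6, 29.1 and 26.2 CPM in the ECs and 17.02, 16.3 and 16.1 CPM in the livers and did not reach the 2-fold threshold (log2 fold change 0.83, SE 0.14, adjusted p = 9.19e-04). It passed the threshold with library sizes alone (1.15). The activin type II receptor gene *Acvr2a* was lower (log2 fold change -1.72, SE 0.19). Of the signal transducers, *Smad1* (log2 fold change 1.39, SE 0.12) and *Smad4* (log2 fold change 1.22, SE 0.15) were higher, and *Smad9* was lower, at 0.149, 0.567 and 0.199 CPM in the ECs and 9.48, 6.02 and 12.7 CPM in the livers (log2 fold change -4.96, SE 0.59; -5.75 without EC library 2 and -5.96 with Y-linked counts as a covariate). The inhibitors *Smad6* and *Smad7*, which BMP signals induce, were higher by 2.17 and 1.92. Of the target genes, *Id3* was at 1237, 1102 and 968 CPM in the ECs and 45.96, 26.2 and 18.4 CPM in the livers (log2 fold change 5.19, SE 0.38, adjusted p = 1.02e-05). *Id1* was at 30.98, 18.3 and 18.7 CPM in the ECs and 14.6, 5.99 and 6.602 CPM in the livers (log2 fold change 1.32, SE 0.38, adjusted p = 0.0148). Its adjusted p was 0.0533, 0.0538 and 0.0646 without EC library 1, liver library 2 or liver library 3. *Id4* was at 29.4, 49.6 and 44.3 CPM and 2.43, 2.41 and 2.76 CPM (log2 fold change 4.02, SE 0.24). *Id2* was not called, at 39.9, 50.7 and 25.9 CPM in the ECs and 89.7, 72.2 and 39.5 CPM in the livers (log2 fold change -0.79, SE 0.34, adjusted p = 0.06602), and the groups overlapped. It passed the threshold as lower without EC library 2 (-1.04) or liver library 3 (-1.08).

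Of 21 iron-sensing genes tested, 6 (28.6%) were higher and 11 (52.4%) lower in the ECs, against 26.6% and 33.3% of all genes tested. *Bmp2*, a ligand that induces hepcidin, was at 301, 392 and 439 CPM in the ECs and 22.04, 31.5 and 36.8 CPM in the livers (log2 fold change 3.65, SE 0.25). *Bmp6*, its partner in this role, was at 50.4, 65.3 and 70.5 CPM in the ECs and 4.55, 5.93 and 7.57 CPM in the livers (log2 fold change 3.37, SE 0.23). The lowest EC library lay above the highest liver for both. The hepcidin gene *Hamp* was at 476, 323 and 171 CPM in the livers and its paralog *Hamp2* at 353, 400.3 and 218 CPM, and neither exceeded 0.249 CPM in any EC library. The hepcidin regulators *Hfe2* (hemojuvelin), *Tfr2* and *Tmprss6* were at 109 to 112, 538 to 586 and 561 to 633 CPM in the livers and at no more than 0.155, 0.199 and 0.553 CPM in any EC library. *Hfe*, which encodes another regulator of hepcidin, was higher in the ECs, at 199, 226 and 205 CPM against 56.4, 54.9 and 53.7 CPM (log2 fold change 1.93, SE 0.12, adjusted p = 4.96e-06), and highest in the macrophages, at 515, 513 and 517 CPM. The transferrin receptor gene *Tfrc* was at 0.369, 0.5404 and 0.376 CPM in the ECs and 21.9, 15.7 and 23.9 CPM in the livers (log2 fold change -5.58, SE 0.29), while the iron exporter gene *Slc40a1* overlapped between the groups, at 143, 124 and 99.6 CPM and 118, 178 and 153 CPM (log2 fold change -0.29, SE 0.20, adjusted p = 0.224).

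Of the VEGF and angiopoietin genes, the receptors were higher in the ECs and the ligands differed in direction. *Vegfa*, the main ligand of VEGFR2, was at 0.927, 2.07 and 1.07 CPM in the ECs and 179, 176 and 201 CPM in the livers (log2 fold change -7.1, SE 0.35, adjusted p = 1.40e-06). *Kdr*, which encodes VEGFR2, was at 2320, 2546 and 2282 CPM in the ECs and 81.3, 115 and 117 CPM in the livers (log2 fold change 4.51, SE 0.23). *Flt4*, which encodes VEGFR3, was at 2801, 4996 and 4569 CPM in the ECs and 42.5, 52.5 and 65 CPM in the livers (log2 fold change 6.27, SE 0.35), and *Flt1*, which encodes VEGFR1, had a log2 fold change of 4.52. Every EC library lay above every liver for the 3 receptors, and *Flt4* was lower in EC library 1 than in the other two. Per kilobase of exon, the EC levels were 501 CPM for *Flt4*, 264 CPM for *Kdr* and 39.7 CPM for *Flt1*. *Vegfc*, a ligand of VEGFR3, was itself higher in the ECs, at 8.31, 19.6 and 19.4 CPM against 3.71, 3.71 and 4.02 CPM (log2 fold change 2.05, SE 0.34; 1.12 with Y-linked counts as a covariate). *Angpt1*, the ligand that activates TIE2, was lower (log2 fold change -3.57, SE 0.53), and its competitor *Angpt2* was higher (log2 fold change 4.57, SE 0.29), as were the receptor genes *Tek* (log2 fold change 4.6, SE 0.17) and *Tie1* (log2 fold change 3.71, SE 0.16) and the receptor phosphatase gene *Ptprb* (log2 fold change 4.96, SE 0.25). Of the Notch genes, the ligands *Dll4* and *Jag1* and the receptors *Notch1* and *Notch4* were higher by 4.47, 3.76, 2.4 and 2.38. *Notch2* was lower, at 13.9, 19.7 and 14.1 CPM in the ECs, 67.6, 50.04 and 57.3 CPM in the livers and 291, 266 and 325 CPM in the macrophages (log2 fold change -1.87, SE 0.19), and so was the mural receptor gene *Notch3*, at 0.0399, 0.3295 and 0 CPM in the ECs and 3.85, 1.57 and 2.37 CPM in the livers. In all, 15 of 24 genes (62.5%) were higher and 6 (25%) lower, against 26.6% and 33.3% of all genes tested.

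**Figure D5:**
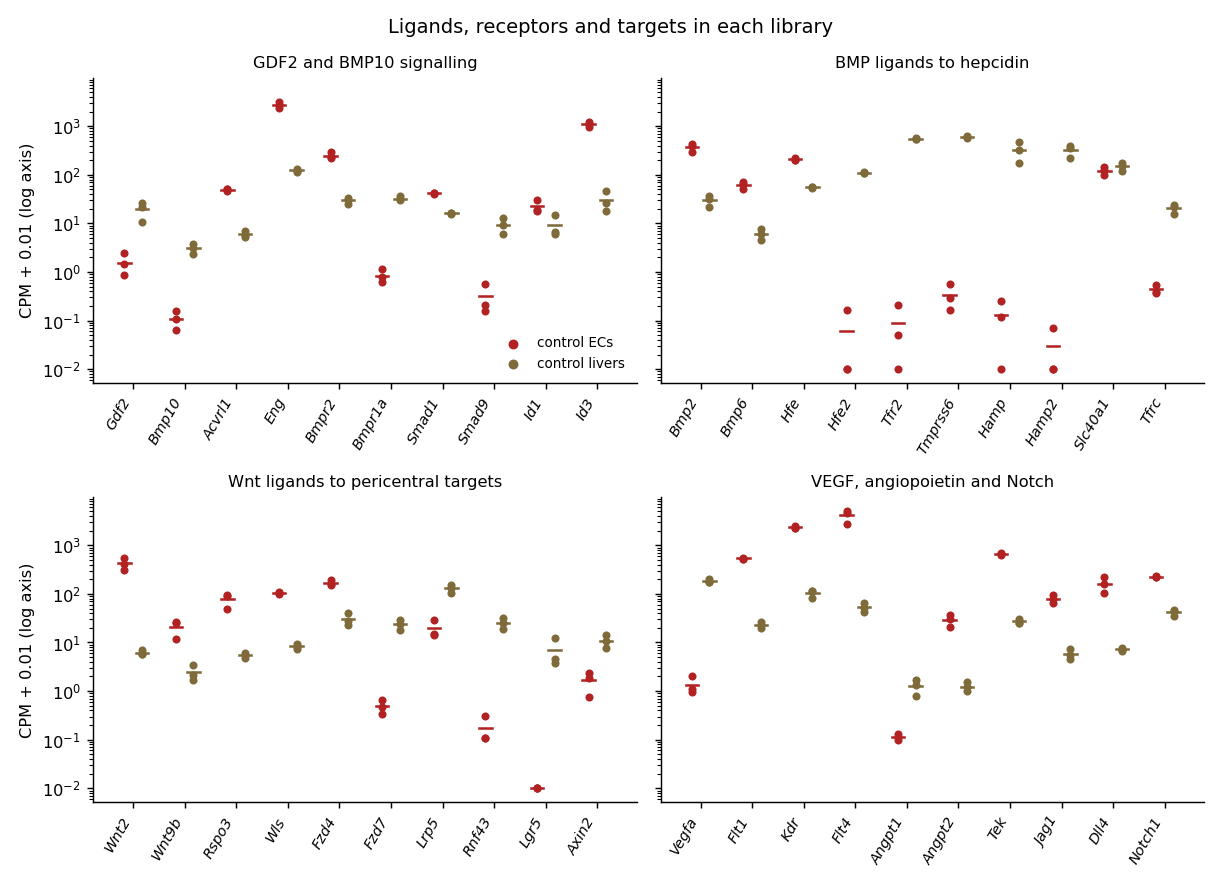
CPM of ligands, receptors and targets of 4 pathways (log axis, with 0.01 added) in each of the 3 control EC and 3 control liver libraries; points are libraries and bars are means. *Bmp2*, *Bmp6*, *Wnt2* and *Rspo3* are higher in every EC library, and *Hamp*, *Vegfa* and *Bmpr1a* are higher in every liver.

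Of 22 genes of junctions, caveolae and diaphragms tested, 15 (68.2%) were higher and 2 (9.09%) lower in the ECs. Over all genes tested, the shares were 26.6% and 33.3%. The caveola gene *Sdpr* (cavin-2) was at 883, 886 and 1102 CPM in the ECs and 19.1, 27.2 and 30.1 CPM in the livers (log2 fold change 5.23, SE 0.25), and *Ptrf* (cavin-1) at 314, 805 and 714 CPM and 21.7, 11.9 and 16.8 CPM (log2 fold change 5.18, SE 0.44; 4.22 with Y-linked counts as a covariate). The caveolin gene *Cav1* was at 35.4, 31.1 and 31.96 CPM in the ECs and 6.098, 2.18 and 5.21 CPM in the livers (log2 fold change 2.86, SE 0.36). The junctional adhesion genes *Jam2* and *Pcdh12* rose by 3.69 and 4.17. The tight junction gene *Ocln* was lower, at 0.0598, 0.8699 and 0.265 CPM in the ECs and 17.97, 27.1 and 26.3 CPM in the livers, as was *Cgnl1* (log2 fold change -2.88, SE 0.19).

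Coagulation genes were read in separate lists for the endothelial side and the hepatocyte side. The lists were drawn up by side, so a division between them is no finding. On the endothelial side, 10 of 15 genes tested (66.7%) were higher and 4 (26.7%) lower, against 26.6% and 33.3% of all genes tested. *Thbd*, the thrombomodulin that turns thrombin toward protein C, rose by 6.32, *Tfpi*, the inhibitor of the tissue factor pathway, by 4.94, and *F8* by 4.44. *Tfpi* was at 276, 337 and 322 CPM in the ECs and 8.25, 10.9 and 11.4 CPM in the livers. *F3*, which encodes tissue factor, was lower, at 0.1196, 0.277 and 0.221 CPM in the ECs and 2.43, 3.51 and 4.15 CPM in the livers (log2 fold change -4.03, SE 0.47; -4.8 with Y-linked counts as a covariate). The protease gene *Adamts13*, which trims von Willebrand factor, was also lower. *Proz*, the protein Z gene placed on this list, was at 0.389, 0.685 and 0.939 CPM in the ECs and 488, 561 and 545 CPM in the livers. On the hepatocyte side, 18 of 18 genes were at least 8-fold lower, against 19.6% of all genes tested, with a median of -10.93. *F5*, which encodes factor V, the cofactor that resembles factor VIII, was at 0.0199, 0.132 and 0 CPM in the ECs and 633, 624 and 768 CPM in the livers, opposite to *F8*. *F2* (prothrombin) was at 5.33, 4.19 and 4.21 CPM in the ECs and 2556, 2307 and 2496 CPM in the livers.

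Hepatocyte transcripts were depleted as a group. All 24 secreted proteins and 24 of 25 metabolic enzymes were at least 8-fold lower in the ECs, with medians of -10.44 and -10.37. *Alb* was at 61.7, 25.6 and 35.3 CPM in the ECs and 96735, 92795 and 116857 CPM in the livers (log2 fold change -11.29, SE 0.66, adjusted p = 2.93e-06; -10.69 with Y-linked counts as a covariate). The EC level was a median of 0.0718% of the liver level over the secreted proteins, with a range of 0.0136 to 0.189%. The apolipoprotein gene *Apob* was at 0.428, 0.896 and 0.895 CPM in the ECs and 4064, 4396 and 5054 CPM in the livers. *Cps1*, the entry enzyme of the urea cycle, was at 0.319, 0.29 and 0.486 CPM in the ECs and 3360, 4523 and 5889 CPM in the livers. The sulfotransferase gene *Sult1a1* differed from the other enzymes, at 84.2, 78.6 and 109 CPM in the ECs, 17.7% of its liver level (log2 fold change -2.5, SE 0.21, adjusted p = 2.28e-05).

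Genes of both hepatocyte zones were lower in the ECs, 15 of 15 pericentral genes with a median of -11.42 and 15 of 15 periportal genes with a median of -10.24. Both medians are of fitted log2 fold changes. With the 2 pericentral genes that had no EC count set at their bound, the pericentral median was -9.76, and over members that had 10 or more counts in each library it was -3.72. Among the pericentral genes, *Glul* and *Oat* kept the highest levels in the ECs. *Glul*, which encodes glutamine synthetase, was at 139, 186 and 133 CPM in the ECs and 1026, 648 and 837 CPM in the livers (log2 fold change -2.45, SE 0.24, adjusted p = 4.37e-05), and *Oat*, which encodes ornithine aminotransferase, at 42.3, 44.1 and 40.99 CPM and 893, 1034 and 1072 CPM (log2 fold change -4.56, SE 0.18). In the macrophages these genes were at 196 and 83.02 CPM on average. *Cyp2e1* and *Cyp1a2*, pericentral cytochrome P450 genes, stayed at or below 1.13 CPM in every EC library, against 6147, 5305 and 5767 CPM and 733, 566 and 1063 CPM in the livers. Among the periportal genes, *Cdh1* (E-cadherin) was at 0.508, 2.81 and 0.519 CPM in the ECs and 59.2, 51.1 and 57.03 CPM in the livers.

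Of 20 hepatocyte transcription factors tested, 19 were lower in the ECs, 18 of them at least 8-fold. *Hnf4a*, the central regulator of hepatocyte genes, was at 0.707, 0.738 and 1.15 CPM in the ECs and 913, 615 and 886 CPM in the livers (log2 fold change -9.86, SE 0.35, adjusted p = 4.98e-07). *Nr5a2* (LRH-1) kept 30.8% of its liver level, at 21.1, 23.2 and 17.8 CPM in the ECs and 0.381 CPM in the macrophages (log2 fold change -1.7, SE 0.14, adjusted p = 1.91e-05), and *Cebpa* kept 4.35%. *Prox1*, which also marks lymphatic endothelium, was at 1.27, 2.17 and 0.939 CPM in the ECs and 73.99, 141 and 100.2 CPM in the livers (log2 fold change -6.18, SE 0.41). Of 9 cholangiocyte markers tested, 4 (44.4%) were lower, against 33.3% of all genes tested. The keratin gene *Krt19* and *Sox9* were low in both groups, at 1.07 to 2.397 and 3.53 to 5.82 CPM in the livers, and were not called (log2 fold change -1.51, SE 0.69, adjusted p = 0.0811 and log2 fold change -1.11, SE 0.54, adjusted p = 0.0973). Both passed the threshold as lower in DESeq2 (-1.58 and -1.18), and *Sox9* did so without EC library 2 (-1.76). With Y-linked counts as a covariate, where EC library 1 stands alone against the livers, the log2 fold changes were -3.57 and -2.55.

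By size alone, the 15 largest rises among genes with a mean of at least 100 CPM in the higher group and no overlap had log2 fold changes of 6.27 to 10.72. After *Dnase1l3* came *Pabpc4l*, a poly(A)-binding protein gene, at 129.9, 209 and 189 CPM in the ECs and 0.379, 0.772 and 0.534 CPM in the livers (log2 fold change 8.31, SE 0.35, adjusted p = 7.55e-07). *Schip1*, a cytoskeletal adaptor gene, was at 135, 126 and 142 CPM in the ECs and 0.0105, 0.0757 and 1.48 CPM in the livers (log2 fold change 8.01, SE 1.16). Its liver level rests on library 3, without which the log2 fold change was 11.71, and its exons overlap a read-through gene on the same strand. *Gpihbp1*, which carries lipoprotein lipase across capillaries, was at 3692, 3144 and 4028 CPM in the ECs and 22.8, 16.9 and 21.4 CPM in the livers (log2 fold change 7.48, SE 0.27, adjusted p = 5.23e-07). *C5ar2*, a receptor for complement C5a, was at 662, 667 and 610.1 CPM in the ECs, 2.11, 4.797 and 4.805 CPM in the livers and 223, 184 and 159 CPM in the macrophages. *Plpp1*, a lipid phosphatase gene, was at 2261, 2085 and 3377 CPM in the ECs and 17.3, 17.5 and 28.4 CPM in the livers. *Spry2*, an inhibitor of receptor tyrosine kinase signalling, varied more among the ECs, at 81.2, 284 and 109 CPM, as did *Apold1*, an immediate early gene of endothelium, at 58.2, 168 and 189.9 CPM. The others were *Vwa7*, *Dusp3*, *Icam2*, *Dpysl2*, *Ppp1r16b*, *Thbd* and *Flt4*. *Dusp3*, a dual-specificity phosphatase gene, was the most abundant of them, at 3871, 5867 and 6088 CPM in the ECs and 49.9, 51.7 and 51.4 CPM in the livers.

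All of the 15 largest falls had no count in any EC library, so that their folds are bounds, between 4721 and 27507 or more. *Ugt3a2*, a glycosyltransferase gene, was at 395, 487 and 428 CPM in the livers, at least 12767-fold lower in the ECs. *Abcc6*, an ABC transporter gene, was at 288, 328 and 337 CPM and the phosphate transporter family gene *Slc17a2* at 281, 239.7 and 218 CPM. *Cyp3a44* was at 69.7, 724 and 273 CPM and varied most among the livers. *Mup18*, *Cyp2a5*, *Cyp2c44*, *Cyp3a44*, *Cyp4f15*, *Slc22a26* and *Slc22a30* belong to families of related genes, whose likeness in sequence was not measured. *Ugt1a5*, *Ugt1a6b* and *Ugt1a9* share exons. How the reads of these genes were divided is uncertain. The last of the 15 were *BC025446* and *Pm20d1*. In all, 87 genes had at most 3 counts in every EC library and over 1000 in every liver.

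The 10 genes with the most counts took 22.2, 28.4 and 26.9% of the counts in the EC libraries and 19.5, 19.8 and 20.8% in the livers. After *Dnase1l3*, those of the ECs were *Sepp1* (selenoprotein P, 1.98 ± 0.22%), *Actb* (1.58 ± 0.30%), *Aqp1*, the water channel aquaporin 1 (1.07 ± 0.18%), *mt-Co1*, *Clec4g*, *Dusp3*, *Ehd3*, *Apoe* and *Sod1*. *Sepp1* was also abundant in the livers, at 0.594% of the counts, and was higher in the ECs (log2 fold change 1.43, SE 0.26, adjusted p = 0.00156). *Apoe*, which encodes apolipoprotein E, was at 6463, 1086 and 7170 CPM in the ECs and 23307, 24502 and 21073 CPM in the livers (log2 fold change -2.23, SE 0.64, adjusted p = 0.0139). EC library 2 was far below EC libraries 1 and 3. With Y-linked counts as a covariate, where EC library 1 stands alone against the livers, the log2 fold change was -1.83. In the livers, *Alb* took 9.14 ± 0.93% (SD, n = 3), followed by *Apoe*, *mt-Co1*, *Trf*, *C3*, *Ahsg*, *Serpina1b*, *Serpina3k*, *mt-Cytb* and *Fga*.

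Genes that respond to tissue handling were not uniform. Of 19 immediate early and heat shock genes tested, 8 (42.1%) were higher and 2 (10.5%) lower in the ECs. Over all genes tested, the shares were 26.6% and 33.3%. *Fos* was at 22.8, 56.9 and 20.6 CPM in the ECs and 2.39, 4.57 and 1.76 CPM in the livers (log2 fold change 3.53, SE 0.52, adjusted p = 4.93e-04; 2.89 without EC library 2), and *Dusp1* at 235, 316 and 256 CPM and 24.1, 32.2 and 53.1 CPM (log2 fold change 2.88, SE 0.30). *Egr1* (log2 fold change -1.0, SE 0.94, adjusted p = 0.362) and *Junb* (log2 fold change 0.52, SE 0.30, adjusted p = 0.145) were not called and overlapped. *Egr1* passed the threshold as lower without EC library 2 (-2.75) and with the replicate number as a block (-1.36), and its log2 fold change was -0.09 without liver library 2 (adjusted p = 0.944). *Jund* and *Hspa1b* were lower (log2 fold change -2.94, SE 0.37 and log2 fold change -3.27, SE 0.62), the second by -2.61 without liver library 1. The part of digestion and sorting in these values was not tested. Of 13 mitochondrially encoded genes, 12 were lower in the ECs, with a median log2 fold change of -2.02. *mt-Co1* was at 5868, 5329 and 6660 CPM in the ECs and 19946, 26314 and 20501 CPM in the livers (log2 fold change -1.9, SE 0.28). Of the nuclear noncoding RNAs, *Malat1* was higher (log2 fold change 1.48, SE 0.27, adjusted p = 0.00146) and *Neat1* lower, at 31.3, 16.6 and 78.2 CPM in the ECs and 723, 1044 and 623 CPM in the livers (log2 fold change -4.24, SE 0.58, adjusted p = 3.27e-04; -5.05 without EC library 3). *Meg3* had no count in any EC library and was at 9.57, 12.8 and 9.45 CPM in the livers.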

How the data were processed

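Per the methods and labels, RNA was sequenced on an Illumina instrument, reads were aligned to GRCm38 (mm10) with HISAT2 and the authors deposited FeatureCounts gene counts, not normalized. The labels and the methods name different library kits, and which libraries were made with which is unclear, so a kit difference between the groups was not tested. Versions, the gene annotation, strandedness and the treatment of multimapping reads are not given in the sources used here. The EC, liver and macrophage tables were joined on the 48337 symbols found once in each, and 483 entries whose symbol occurs more than once were left out, among them *Ltbp4*, *Fth1* and *Fzd6*. Of the joined entries, 23 carry a date in place of a symbol. Genes were kept by filterByExpr (minimum count 10, total 15) and compared by edgeR 4.0.16 (quasi-likelihood F test, TMM, R 4.3.3) over the 6 libraries, with Benjamini-Hochberg adjustment over all 17279 genes tested. Calls required an adjusted p under 0.05 and more than a 2-fold difference in either direction. Groups were taken from the titles. Not every list member is reported here by name. Replicate numbers share only a number between ECs and livers, since these are different mice. The genes named outside the lists were the 15 largest called rises and falls with a mean of at least 100 CPM in the higher group and no overlap, the 10 genes with the largest share of the counts in each group, and a few singled out after their values were seen. The text adds genes of the lists by their role. Members of the lists were matched by symbol, 5 of them by an older one. The comparison and the gene lists were chosen with earlier results of these data known. Positions and overlaps are from GENCODE vM21, where 95.4% of the symbols were found, and promoters from RefSeq. *Ackr1*, *Clec1b*, *Egfl7*, *Notch2*, *Schip1*, *Serpina3k*, *Trf* and the Ugt1a genes are among those that share exon bases with another gene on the same strand, and antisense partners cannot be told apart without strand, so how their reads were assigned is uncertain. The script was tested on simulated counts before use. Macrophage CPM were put on the same scale by TMM factors over all 9 control libraries. A level given per kilobase divides CPM by the length of all exons. Alternatives included DESeq2 1.42.0, other scalings and filters, each library left out, a replicate block and Y-linked counts as a covariate. The last of these compares EC library 1 alone with the livers.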

Additional observations from a re-analysis of the deposited data

How the results depend on the processing

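Across 18 alternatives, the genes higher in the ECs numbered 3591 to 5444 and the lower ones 3561 to 6216. With at least 10 counts required in every library, 12784 genes were tested, and 3561 were lower, 907 at least 8-fold higher and 1182 at least 8-fold lower, because that filter removes genes near 0 in one group. Leaving out each library in turn gave 4384 to 4600 higher and 5599 to 6017 lower genes, of which 1579 to 1732 and 3397 to 3710 were at least 8-fold apart. DESeq2 called 4400 higher and 5973 lower genes and shared 95.29% and 99.76% of the calls. The replicate block, which pairs numbers but not mice, gave 4268 and 5474, and same-numbered libraries deviated together with correlations of 0.11, 0.0203 and 0.00649. Y-linked counts as a covariate leave EC library 1 alone against the livers, so the numbers of genes called in that fit are not given. Of 207 named genes called, 197 kept the call in every alternative that tested them. The log2 fold change of *Slc40a1* turned from -0.29 to 0.04 with library sizes alone. Under a test against a 2-fold difference, *Ctsl*, *Dpp4*, *Smad4* and *Id1* were among those that lost the call (adjusted p = 0.0685, 0.145, 0.0575 and 0.148). *Acvr1*, *Egr1*, *Hgf*, *Id2*, *Krt19*, *Lrat* and *Sox9* gained a call in some alternatives. For genes with few or no EC counts, a fitted fold change rests on single counts, and the 3-count floor limits what can be said.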

Other observations

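Several genes lay near 0 in some libraries and above 1000 counts in others of the same group, and were singled out after their values were seen. In the ECs, *Cpne1* had 2, 3253 and 2849 counts and *Lrch4* 2, 2022 and 2350 counts, and both share exons with another gene on the same strand. *Gm26751* had 2651, 2078 and 0 counts. *Gm28048*, which shares exon bases with *B3gnt2* and *Commd1* on the same strand, had 1319, 0 and 1005. In the livers, *Kctd12*, an auxiliary subunit gene of GABA-B receptors, had 1943, 1935 and 0 counts, and the pseudogene *Mup-ps18* 5192, 0 and 1405. *Adnp*, a homeobox gene that is transcribed in most tissues, had no counts in any EC library and 5446, 2277 and 4851 in the livers, whereas *Gm20716*, annotated across it on the same strand, had 8649, 5728 and 6474 counts in the ECs and 0, 3029 and 0 in the livers. The division of reads between such pairs was not tested.

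Among genes that were higher in ECs than in livers, some were higher still in the sorted macrophages, again chosen after their values were seen. The cholesterol exporter gene *Abcg1* was at 525, 665 and 709 CPM in the ECs, 7.81, 9.91 and 9.38 CPM in the livers and 1865, 1689 and 2582 CPM in the macrophages. *Irf8*, a factor of myeloid cells on the endothelial list, was at 50.6, 61.6 and 115 CPM in the ECs, 11.3, 11.03 and 11 CPM in the livers and 359, 284 and 293 CPM in the macrophages. The factor gene *Tfec* was at 21.9, 23.9 and 23.4 CPM in the ECs, 2.56, 2.54 and 3.35 CPM in the livers and 37.6, 34.1 and 37.9 CPM in the macrophages.

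By annotation, 34 of 36 immunoglobulin variable genes tested were lower in the ECs, against 33.3% of all genes tested. Of 13542 protein-coding genes tested, 3506 were higher and 4569 lower.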
